A study of Mus musculus with 12 samples.

Results

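The lipins and the enzymes that assemble triglyceride are described here in the liver and the subcutaneous fat of mice that overexpressed human HKDC1 in hepatocytes. The 8 genes (Lpin1, Lpin2, Lpin3, Gpam, Agpat2, Dgat1, Dgat2 and Mogat1) were chosen by name out of the 54532 genes of the count table, and each was found once and read in all 12 libraries. They were picked with earlier results of these data known, so their differences between hHKDC1 OE and null libraries are a description: no p-value of a member is printed for them, and counts of members called or not overlapping stand beside the share over all genes. Male mice received, at 10 weeks of age, 1 tail vein injection of an adeno-associated virus of serotype 8 whose thyroxine-binding globulin promoter is active in hepatocytes. The virus carried full-length human HKDC1, a hexokinase, in the hHKDC1 OE mice and no HKDC1 in the null mice, and both groups then ate a low-fat diet for 16 weeks. RNA-seq gave 3 libraries for each tissue and vector (null liver, hHKDC1 OE liver, null fat and hHKDC1 OE fat). The promoter restricts the transgene to hepatocytes, so fat was not a target of the vector, and the strain is not given in the sources used here.

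Triglyceride is built on glycerol 3-phosphate by adding fatty acids in steps. Gpam, in the outer mitochondrial membrane, adds the first fatty acid, and Agpat2, in the endoplasmic reticulum, adds the next to give phosphatidate. The lipins remove the phosphate to give diacylglycerol, the branch point between triglyceride and the main membrane phospholipids, and Lpin1 protein also acts in the nucleus as a co-regulator of transcription. Dgat1 and Dgat2, unrelated in sequence, add the last fatty acid, whereas Mogat1 makes diacylglycerol from monoacylglycerol without a lipin. In liver this pathway feeds lipid droplets and secreted lipoproteins, and in fat it fills the storage droplet; mice without Lpin1 have very little fat tissue.

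Each library held 15496019 to 19954971 counts on genes. In each tissue, 1 label field calls 2 of the 3 hHKDC1 OE libraries knockouts, but their titles name overexpression and were followed. Mouse Hkdc1 had 0 to 8 counts per library, and human HKDC1 was not analysed here, so the transgene gave no check of the labels. The 10 hepatocyte markers summed to 67520 to 117800 CPM (counts divided by a library size that edgeR's TMM factors adjust within a tissue) in liver, and the 8 adipocyte markers to 22470 to 38430 CPM in fat with none at 0. Markers of other cell types were also read in the fat libraries, and where that RNA came from was not tested: 8 B cell markers summed to 1.76 to 3.58 CPM in null fat and to 891, 50.1 and 641 CPM in hHKDC1 OE fat replicates 1, 2 and 3, and 5 skeletal muscle markers ranged from 477 to 20030 CPM over the 6 fat libraries. No pair of replicates was the same library deposited again, and a legend of the study counts the fat replicates as mice. For liver the sources used here do not say so, and a p-value there measures only the spread between these libraries.

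The genes lie, in GRCm38 as the count table gives it, at chr12:16535669-16610966 (Lpin1), chr17:71182560-71249817 (Lpin2), chr2:160880670-160906002 (Lpin3), chr2:26593057-26604417 (Agpat2), chr15:76502015-76511953 (Dgat1), chr7:99153658-99182719 (Dgat2), chr1:78510991-78538173 (Mogat1) and chr19:55069734-55099451 (Gpam). In GENCODE M21, exons of other genes overlap only those of Mogat1 and, by 64 bases, Agpat2. Gpam is the member whose limits differ in GENCODE M21: its exons cover 6664 bases there against 3832 in the count table, so its FPKM depends on the annotation by 1.74-fold, assuming the same counts.

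All 3 lipins carry the same catalytic motif of the phosphatase, and the stretch of coding sequence around it is shown because it is the site of the reaction they share. Each line gives 75 bases of the longest GENCODE coding sequence, GRCm38, with the 15 bases that encode the motif in capitals, and each stretch is cut by an intron in the genome. Lpin1 lies at chr12:16546786-16547538 on the minus strand, Lpin2 at chr17:71243384-71243946 on the plus strand and Lpin3 at chr2:160903699-160903945 on the plus strand.
Lpin1: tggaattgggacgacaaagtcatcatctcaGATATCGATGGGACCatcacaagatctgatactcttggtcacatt
Lpin2: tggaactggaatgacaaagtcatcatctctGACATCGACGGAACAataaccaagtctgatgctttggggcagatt
Lpin3: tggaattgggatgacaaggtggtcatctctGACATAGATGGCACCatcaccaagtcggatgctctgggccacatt
Over these 75 bases, Lpin1 and Lpin2 shared 58, Lpin1 and Lpin3 shared 60, and Lpin2 and Lpin3 shared 61. The longest coding sequences run to 924, 931 and 858 codons for Lpin1, Lpin2 and Lpin3.

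Promoter windows (RefSeq, GRCm38.p6, 250 bases before to 50 after a start site) were held for 6 of the 8 genes, 10 windows in all, and not for Dgat1 and Dgat2. The 3 printed here belong to the genes whose hHKDC1 OE libraries lay below every null library in a tissue in CPM (Lpin1, Lpin2 and Gpam): for Lpin2 and Gpam the window nearest the start of the gene in the count table. Capitals mark motif matches on either strand.
Lpin1, chr12:16610917-16611216, minus strand: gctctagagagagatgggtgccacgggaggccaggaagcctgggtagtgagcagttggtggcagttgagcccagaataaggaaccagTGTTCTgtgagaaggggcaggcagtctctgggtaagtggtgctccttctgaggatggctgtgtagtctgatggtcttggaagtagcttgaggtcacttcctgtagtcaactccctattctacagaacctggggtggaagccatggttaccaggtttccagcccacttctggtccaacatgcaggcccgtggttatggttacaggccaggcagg
Lpin2, chr17:71183282-71183581, plus strand: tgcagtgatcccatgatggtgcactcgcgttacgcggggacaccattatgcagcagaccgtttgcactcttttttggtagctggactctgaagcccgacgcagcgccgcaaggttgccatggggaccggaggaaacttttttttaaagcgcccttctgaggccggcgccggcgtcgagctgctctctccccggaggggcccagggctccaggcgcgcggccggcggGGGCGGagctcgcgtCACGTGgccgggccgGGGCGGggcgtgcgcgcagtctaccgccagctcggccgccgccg
Gpam, chr19:55099428-55099727, minus strand: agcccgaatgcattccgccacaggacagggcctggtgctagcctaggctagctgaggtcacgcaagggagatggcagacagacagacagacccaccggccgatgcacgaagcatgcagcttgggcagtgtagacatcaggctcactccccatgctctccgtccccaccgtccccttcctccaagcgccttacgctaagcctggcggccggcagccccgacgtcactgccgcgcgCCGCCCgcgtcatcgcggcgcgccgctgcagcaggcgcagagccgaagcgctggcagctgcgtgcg
The capitals in Lpin1 mark the glucocorticoid half-site AGAACA read on the other strand, 163 bases before the start site. That half-site occurred in 3 of the 10 windows and in 19% of all 32851 promoter windows of this length. Those in Lpin2 mark the GC box GGGCGG at 2 places and the E-box CACGTG 9 bases before the start site, and those in Gpam a GC box. The GC box occurred in 5 of the 10 windows and 35.7% of all windows, the E-box in 2 of 10 and 7.15%. The full glucocorticoid response element, AGAACA and TGTTC set 3 bases apart, which contains the half-site, was in 0 of the 10 windows and 0.0487% of all. The sterol element TCACNCCAC (1.24% of all windows), the PPAR direct repeat, 2 copies of AGGTCA set 1 base apart (0.0396%), and the cAMP element TGACGTCA (1.79%) were also in 0 of 10. CCAAT was in 3 of 10 and 37.4%, in none of those printed.

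The levels of the genes in null mice were compared first, as FPKM (fragments per kilobase of gene, scaled for depth), the scale on which genes of different length can be set side by side. In null liver Dgat2 was highest at 300.1 ± 25.2 FPKM (SD, n = 3), followed by Agpat2 at 140.2 ± 10.3 and Lpin1 at 116 ± 17.4. Lpin2 (53.2 ± 7.43) and Gpam (38.6 ± 28.3) came next, and Dgat1 (9.23 ± 0.637), Mogat1 (1.66 ± 0.443) and Lpin3 (1.39 ± 0.488) were lowest. The libraries of Agpat2 and Lpin1, of Lpin2 and Gpam, and of Mogat1 and Lpin3 overlapped, whereas the other neighbours in this order did not. In null fat the order was Dgat2 (597 ± 115), Agpat2 (179 ± 18.4), Lpin1 (66.6 ± 9.62), Dgat1 (51.9 ± 6.39), Gpam (28.4 ± 3.04), Mogat1 (9.11 ± 1.48), Lpin3 (4.73 ± 0.624) and Lpin2 (2.35 ± 0.920). There the libraries of Lpin1 and Dgat1 overlapped and no other neighbours did. With its GENCODE length, Gpam came to 22.2 FPKM in null liver and 16.3 FPKM in null fat, which left its place in both orders, and its liver libraries then lay below those of Lpin2. The plot of FPKM by library shows these levels with each replicate.

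**Figure D1:**
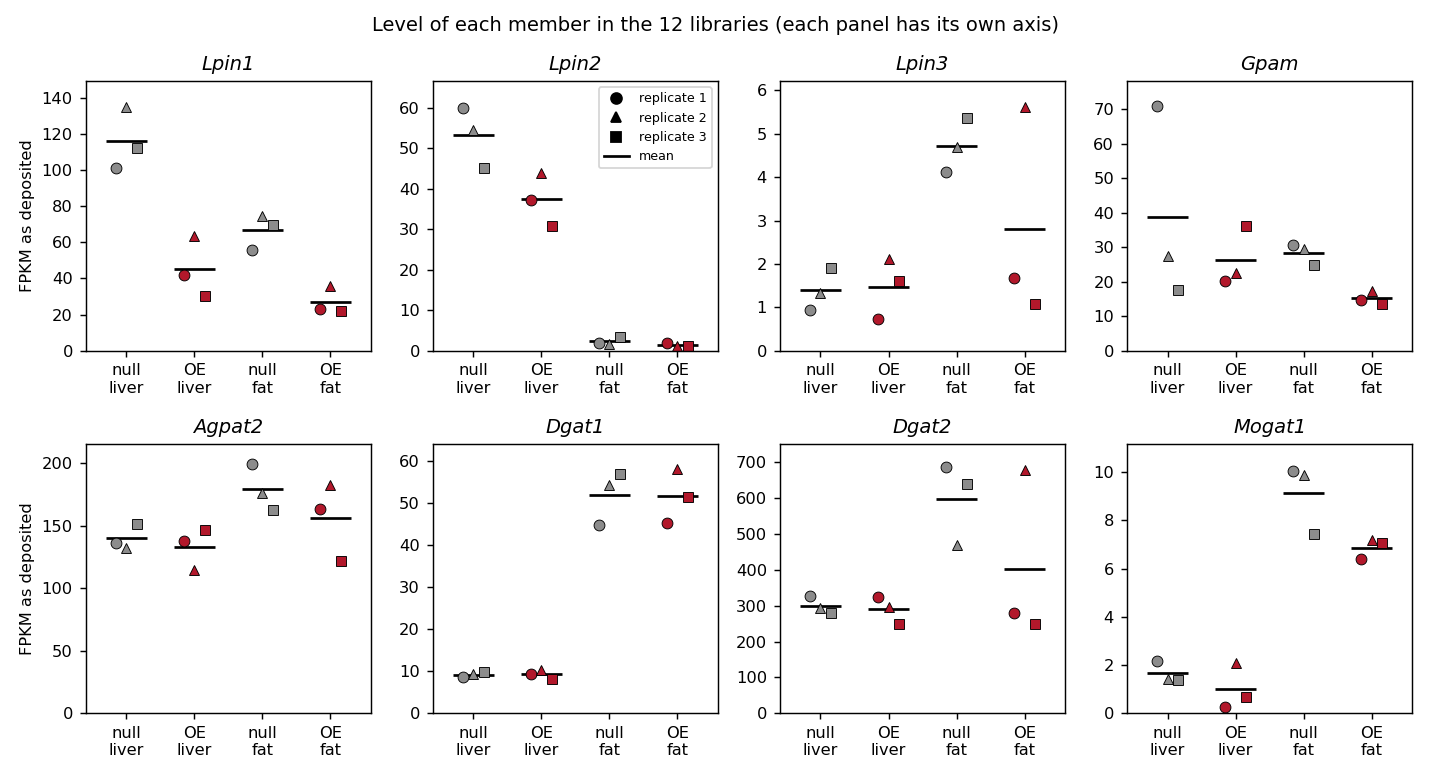
FPKM as deposited (vertical axis, 1 axis per panel, from 0) of the 8 genes in null (grey) and hHKDC1 OE (red) libraries of liver and subcutaneous fat, with a symbol for each replicate and a bar at the group mean. Lpin1 lies lower in all hHKDC1 OE libraries of both tissues, Lpin2 only in those of liver, and Gpam and, narrowly, Mogat1 only in those of fat. In fat Dgat2 and Lpin3 are low in hHKDC1 OE replicates 1 and 3 but not 2.

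The largest difference of any of the 8 genes was between the tissues. Between null fat and null liver, the edgeR quasi-likelihood test, adjusted over all genes by Benjamini-Hochberg, called 6 of the 8 genes, where 64.3% of the 15259 genes tested were called. Lpin2 was 23.6-fold lower in fat (log2 difference -4.56, standard error 0.31, adjusted p = 1.12e-05). Its 3 null liver libraries were at 59.9, 54.5 and 45.2 FPKM and its 3 null fat libraries at 1.92, 1.72 and 3.40. Were all Alb RNA in fat from liver tissue, the matching share of liver Lpin2 would make up 37.0%, 40.3% and 58.5% of these fat levels, and the part of liver RNA in the fold was not tested. Dgat1 (2.44, standard error 0.15, adjusted p = 8.21e-06) and Mogat1 (2.41, standard error 0.28, adjusted p = 0.000141) were 5.42-fold and 5.31-fold higher in fat. Lpin3 was higher by 1.70 (standard error 0.29, adjusted p = 0.00114) and Dgat2 by 0.94 (standard error 0.22, adjusted p = 0.00601). Each of these genes had its 3 fat libraries wholly on one side of its 3 liver libraries. Lpin1 was 1.81-fold lower in fat by this scaling (-0.86, standard error 0.22, adjusted p = 0.00864), a direction that was lost when libraries were scaled by their total alone (0.03), a scaling under which the median over all genes went from 0.09 to 0.98. The other called genes kept their direction under it, at -3.65 for Lpin2, 3.33 for Dgat1, 3.30 for Mogat1, 2.58 for Lpin3 and 1.83 for Dgat2, so that the size of each fold rests on the scaling. Agpat2 (0.30, standard error 0.16, adjusted p = 0.139) and Gpam (-0.49, standard error 0.45, adjusted p = 0.367) did not pass, although 5 of 15 alternatives called Agpat2.

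In liver, Lpin1 stood apart from the other 7 genes. Its null libraries were at 697, 966 and 812 CPM and its hHKDC1 OE libraries at 300, 469 and 218 CPM. Each hHKDC1 OE library was below every null library, with replicate 2 the nearest to them. The means were 825 ± 135 and 329 ± 128 CPM (SD, n = 3 and 3), a ratio of 0.399 in the fit (log2 fold change -1.33, standard error 0.27). Lpin2 was at 523, 493 and 414 CPM in null liver and 337, 411 and 283 CPM in hHKDC1 OE liver. The groups did not overlap, although the lowest null and the highest hHKDC1 OE library were close, and the log2 fold change was -0.47 (standard error 0.18). Lpin3, the third lipin, was low in liver, with 40 to 85 counts in null and 32 to 112 counts in hHKDC1 OE libraries (0.12, standard error 0.43).

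The acyltransferases of liver differed less between the vectors than between replicates. Gpam was at 194, 77.9 and 50.2 CPM in null liver and 57.1, 65.6 and 103 CPM in hHKDC1 OE liver. Null replicate 1 alone was high, and without it the log2 fold change turned from -0.51 (standard error 0.44) to 0.24. Agpat2 was at 207, 208 and 242 CPM in null and 217, 186 and 234 CPM in hHKDC1 OE liver (-0.05, standard error 0.15). Dgat2 was at 722, 669 and 642 CPM in null and 736, 699 and 574 CPM in hHKDC1 OE liver (-0.02, standard error 0.16). Both pairs of groups lay on top of each other, as did those of Dgat1 at 18.7 to 22.5 and 18.7 to 24.0 CPM (0.04, standard error 0.16). Mogat1 had 25 to 39 counts in null and 5, 47 and 15 counts in hHKDC1 OE liver, too few for a narrow estimate (-0.63, standard error 0.65). Its value was -1.74 without hHKDC1 OE replicate 2 and -0.19 without hHKDC1 OE replicate 1.

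By edgeR's quasi-likelihood test at an adjusted p of 0.05, 0 of the 8 genes and 0% of the 13351 genes tested were called in liver. The lowest adjusted p of any gene was 0.0573, 927 genes had an unadjusted p under 0.05, 2 of the 8 among them, and DESeq2 called 90 genes, of which Lpin1 was the member. All hHKDC1 OE libraries lay below all null libraries in 2 of the 8 genes (Lpin1 and Lpin2) against 6.18% of all genes tested, and above them in 0 of 8 against 6.31%. These shares describe genes picked on such values and nothing is read from them. The hepatocyte marker sum was itself lower in hHKDC1 OE liver, at 90160, 88080 and 67520 CPM against 111700 to 117800 CPM in null liver, with 0 of its 10 genes at 0 counts in any liver library. The 7 macrophage and Kupffer cell markers summed to 106 to 163 CPM in null and 147 to 272 CPM in hHKDC1 OE liver, 6 of 7 with a log2 fold change above 0, and the 4 endothelial markers to 51.7 to 85.0 and 30.6 to 58.1 CPM, 4 of 4 below 0. Both sums overlapped between the groups, and the part of these lists in the values above was not tested. With the replicate number as a block, 17 genes were called in liver in place of 0, none of them a member.

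In fat, Lpin1 and Gpam were the genes with separate groups in CPM. Lpin1 was at 730, 991 and 886 CPM in null fat and 321, 460 and 304 CPM in hHKDC1 OE fat. All hHKDC1 OE libraries were below all null libraries, and replicate 2 was again the highest of them, although the labels do not tie the liver and fat libraries to the same mouse. The means were 869 ± 132 and 362 ± 85.8 CPM (SD, n = 3 and 3), and the ratio in the fit was 0.416 (log2 fold change -1.27, standard error 0.24). Gpam was at 159, 156 and 126 CPM in null fat and 81.5, 88.7 and 74.5 CPM in hHKDC1 OE fat. The spread within each group was narrow, and the log2 fold change was -0.85 (standard error 0.15). The 5 skeletal muscle markers, from a tissue rich in Lpin1, summed to 16440, 20030 and 477 CPM in null fat and 14580, 992 and 2253 CPM in hHKDC1 OE fat, and their part in the Lpin1 values was not tested.

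Dgat2 and Lpin3 in fat were split within the hHKDC1 OE group. Dgat2 was at 2857, 1986 and 2599 CPM in null fat and 1243, 2772 and 1097 CPM in hHKDC1 OE fat. Lpin3 was at 20.6, 23.9 and 26.2 CPM in null fat and 8.95, 27.6 and 5.72 CPM in hHKDC1 OE fat. Replicates 1 and 3 were below every null library for both genes, and replicate 2 was within or above the null range. The log2 fold changes were -0.54 (standard error 0.40) for Dgat2 and -0.74 (standard error 0.54) for Lpin3. Replicates 1 and 3 were the hHKDC1 OE libraries with 891 and 641 CPM of B cell markers and 563 and 631 CPM of T cell markers, against 50.1 and 44.2 CPM in replicate 2. Their adipocyte markers summed to 22470 and 28910 CPM, against 36160 CPM in replicate 2 and 32700 to 38430 CPM in null fat. The 4 keratinocyte markers summed to 1.80 to 9.68 CPM over the 3 hHKDC1 OE fat libraries and 11.97 to 210 CPM in null fat. The 7 macrophage markers summed to 143 to 316 CPM in null fat and 396 to 422 CPM in hHKDC1 OE fat, with no overlap and replicate 2 among the higher libraries. The 6 brown or beige adipocyte markers summed to 59.7 to 152 CPM in null fat and 81.1 to 315 CPM in hHKDC1 OE fat, which overlapped. Of the 6, 4 had a log2 fold change above 0 and 2 below, and 0 were called by edgeR. All hHKDC1 OE libraries lay above null in 2 of them (Ucp1 and Dio2), against 12.5% of all genes tested. The part of these lists in the results was not tested. In bulk tissue, fewer adipocytes and less RNA per adipocyte cannot be told apart. Without replicates 1 and 3 a single hHKDC1 OE library, replicate 2, is left. Its values against null fat, which rest on that 1 library, were 0.16 for Dgat2, 0.23 for Lpin3, -0.92 for Lpin1 and -0.73 for Gpam as log2 fold changes.

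**Figure D2:**
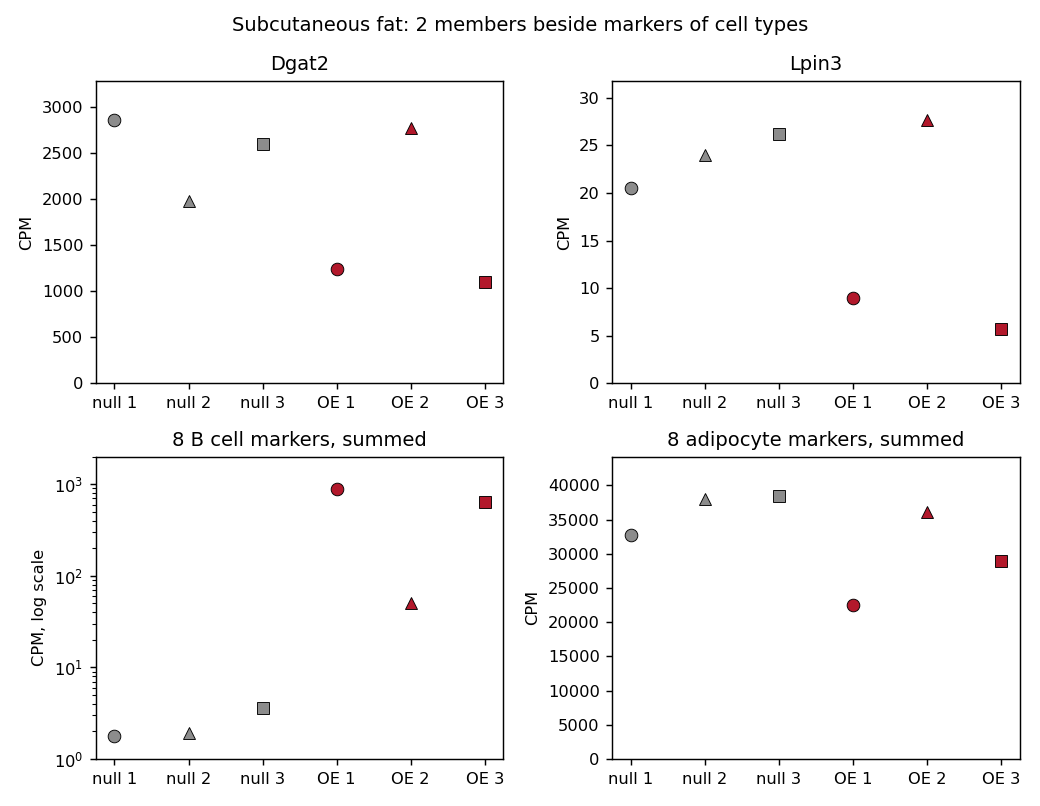
CPM of Dgat2 and Lpin3 and the summed CPM of 8 B cell markers (log axis) and 8 adipocyte markers in each of the 6 fat libraries, null in grey and hHKDC1 OE in red. The hHKDC1 OE replicates 1 and 3 hold 891 and 641 CPM of B cell markers and the lowest Dgat2, Lpin3 and adipocyte marker levels, and replicate 2 lies with or near the null libraries in the other 3 panels.

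Each gene was therefore also set against the summed adipocyte markers of its own library. Lpin1 came to 2.23% to 2.61% of the adipocyte marker sum in null fat and 1.05% to 1.43% in hHKDC1 OE fat, with no overlap and a difference of mean log2 values of -0.94. Gpam came to 0.328% to 0.485% in null and 0.245% to 0.363% in hHKDC1 OE fat, which overlapped (-0.50). Dgat2 (5.22% to 8.74% and 3.79% to 7.67%) and Lpin3 (0.0629% to 0.0681% and 0.0198% to 0.0764%) overlapped as well. Dgat1 came to 0.565% to 0.601% in null and 0.652% to 0.886% in hHKDC1 OE fat, so that its groups separated on this scale (0.38) and not in CPM. The other 3 genes overlapped: Lpin2 differed by -0.27, Mogat1 by -0.001 and Agpat2 by 0.18, the last with the opposite sign to its difference in CPM.

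The remaining genes differed little between the vectors in fat. Dgat1 was at 185, 229 and 229 CPM in null and 199, 236 and 225 CPM in hHKDC1 OE fat (log2 fold change 0.04, standard error 0.16). Agpat2, whose loss causes lipodystrophy, was at 574, 517 and 458 CPM in null and 501, 518 and 373 CPM in hHKDC1 OE fat (-0.15, standard error 0.20). Both genes overlapped between the groups. Mogat1 was at 21.2, 21.2 and 15.3 CPM in null and 14.4, 14.9 and 15.7 CPM in hHKDC1 OE fat (-0.36, standard error 0.20), where null replicate 3 fell among the hHKDC1 OE libraries. In FPKM as deposited its groups separated narrowly, at 7.41 to 10.05 in null and 6.40 to 7.17 in hHKDC1 OE fat, so that the overlap rests on the scaling. Of its exonic bases, 12.8% overlap BC035947 on the other strand, and reads were counted without strand.

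Lpin2 in fat was highest in the library with the highest hepatocyte markers, and its groups overlapped. It was at 31.8, 28.9 and 54.9 CPM in null fat and 32.2, 19.8 and 22.3 CPM in hHKDC1 OE fat (log2 fold change -0.64, standard error 0.31). The highest library, null replicate 3, also had the highest sum of hepatocyte markers, 7764 CPM, against 752 to 2678 CPM in the other fat libraries. The level of Alb, the albumin gene of hepatocytes, was 1.34%, 1.30% and 3.74% of its null liver mean in the null fat libraries and 0.825%, 0.320% and 0.463% in the hHKDC1 OE fat libraries. The part of liver RNA in the Lpin2 values was not tested.

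In fat, 0 of the 8 genes and 0% of the 16380 genes tested were called by edgeR's quasi-likelihood test. The lowest adjusted p was 0.133, 2903 genes had an unadjusted p under 0.05, 2 of the 8 among them, and DESeq2 called 1301 genes, Lpin1 and Gpam among them. In CPM the hHKDC1 OE libraries lay below all null libraries in 2 of the 8 genes against 10.2% of all genes tested, and above them in 0 of 8 against 12.5%. In FPKM as deposited Mogat1 lay below as well, and the share over all genes was not counted on that scale. Nothing is read from these shares. The median log2 fold change was -0.59 over the 8 genes and -0.05 over all genes tested in fat, and -0.26 and 0.01 in liver. Leaving out hHKDC1 OE replicate 2 raised the called genes in fat from 0 to 3251 of 17190 (18.9%), with 4 of the 8 members among them (Lpin1, Gpam, Lpin3 at -1.69 and Dgat2 at -1.09), and in liver from 0 to 146 of 13587 (1.07%), with Lpin1 among them.

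**Figure D3:**
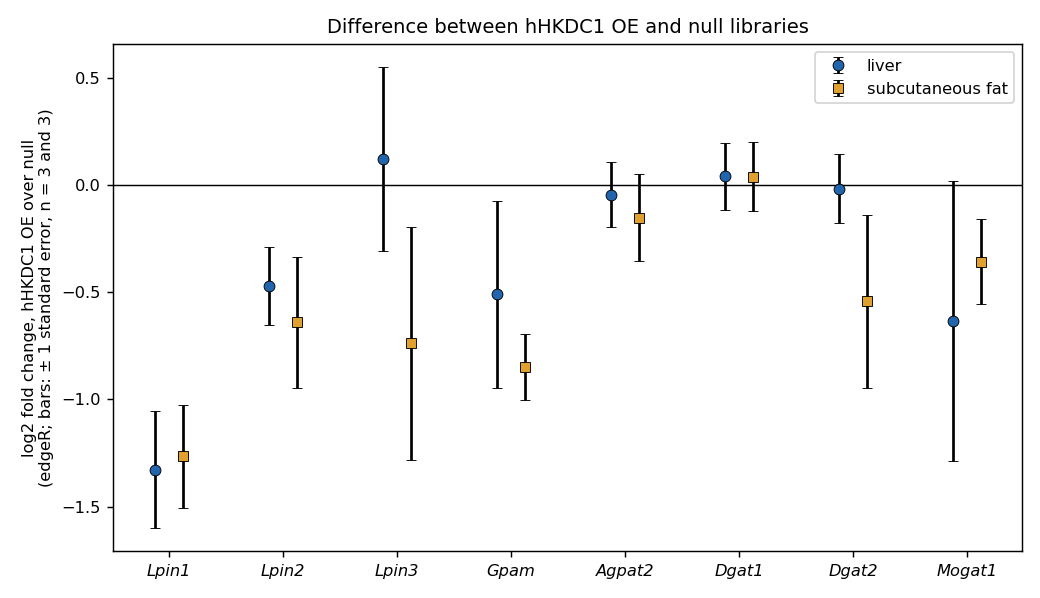
Log2 fold change of hHKDC1 OE over null (vertical axis) for the 8 genes in liver (circles) and subcutaneous fat (squares), with bars of 1 standard error from the fit of 3 against 3 libraries. Lpin1 lies at -1.33 and -1.27, Gpam at -0.51 in liver with a wide bar and -0.85 in fat with a narrow one, and Agpat2 and Dgat1 lie near 0 in both tissues.

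The make-up of the lipins differed by tissue and vector. The 3 lipins summed to 160 to 191 FPKM in null liver and 62.6 to 110 FPKM in hHKDC1 OE liver, and to 61.9 to 80.9 FPKM in null fat and 24.3 to 42.6 FPKM in hHKDC1 OE fat. In liver, Lpin1 made up 62.4%, 70.8% and 70.5% of the sum in null libraries and 52.5%, 58.0% and 48.1% in hHKDC1 OE libraries. The shares did not overlap, and Lpin2 took 28.4% to 37.0% and 40.1% to 49.3%. In hHKDC1 OE liver replicate 3 the level of Lpin2 was above that of Lpin1, with a ratio of Lpin1 to Lpin2 of 0.976, while in null liver the ratio was 1.69 to 2.49. In fat Lpin1 was 88.8% to 92.1% of the sum in null and 84.0% to 90.3% in hHKDC1 OE libraries, which overlapped. Lpin3 reached 13.2% in hHKDC1 OE fat replicate 2 and 4.45% to 6.86% in the other fat libraries. The stacked levels of the lipins show this by library.

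**Figure D4:**
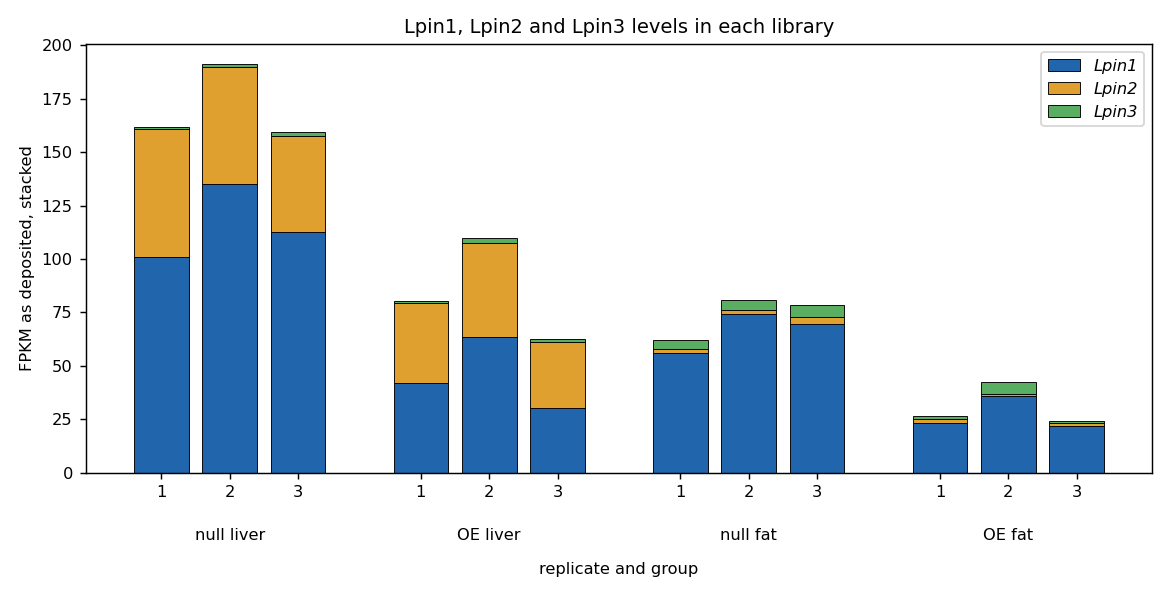
FPKM as deposited (vertical axis) of Lpin1, Lpin2 and Lpin3, stacked for each of the 12 libraries, which are numbered by replicate within their group. The bars reach 160 to 191 in null liver and 62.6 to 110 in hHKDC1 OE liver, with Lpin2 as the second large part, and in fat nearly the whole bar is Lpin1.

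The pairs of enzymes that catalyse the same or neighbouring steps were compared within each library, as ratios of FPKM. Dgat2 over Dgat1 was 28.3 to 38.2 in null liver, 28.8 to 34.5 in hHKDC1 OE liver, 8.61 to 15.3 in null fat and 4.82 to 11.7 in hHKDC1 OE fat. The ratio was thus lower in every fat library than in every liver library and overlapped between the vectors. Gpam over Agpat2 was 0.153 to 0.168 in null fat and 0.0904 to 0.111 in hHKDC1 OE fat, which did not overlap. In liver the same ratio was 0.115 to 0.519 in null and 0.146 to 0.246 in hHKDC1 OE libraries. With the GENCODE length of Gpam each of these ratios is 1.74-fold lower, alike in both groups.

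An interaction term in a fit of the 12 libraries tested whether the vectors differed by unequal amounts in the 2 tissues. The fit called 0 of the 8 genes and 0% of the 17070 genes tested (edgeR, adjusted p under 0.05), while 2163 genes and 0 of the 8 had an unadjusted p under 0.05 and DESeq2 called 493 genes, 0 of the 8 among them. The fat difference less the liver difference was 0.14 (standard error 0.40) for Lpin1, -0.08 (0.38) for Lpin2 and -0.25 (0.56) for Gpam on the log2 scale. These standard errors leave room for a difference of either sign. The values furthest from 0 were -0.79 (0.75) for Lpin3 and -0.45 (0.46) for Dgat2, the genes split between the hHKDC1 OE fat libraries. Single libraries moved these values: without hHKDC1 OE fat replicate 2 they were -1.93 for Lpin3, -1.20 for Dgat2 and -0.27 for Lpin1, and the fit then called 1211 of 17875 genes (6.77%), of which Dgat2 was the member. Gpam went to -1.02 without null liver replicate 1 and to 0.09 without null liver replicate 3, and Mogat1 from 0.37 to 1.44 without hHKDC1 OE liver replicate 2. Lpin2 went to -0.48 without hHKDC1 OE fat replicate 1 and to -0.45 without null fat replicate 2.

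The other genes of glycerolipid synthesis were taken from a list of 52, ordered by step. In liver 49 had enough counts, 0 were called by edgeR in either direction, 10 had an unadjusted p under 0.05, as did 927 of all 13351 genes tested, and DESeq2 called 3, all lower. The log2 fold change was below 0 in 39 and above 0 in 10, with a median of -0.14 beside 0.01 for all genes. In 11 of the 49 all hHKDC1 OE libraries lay below all null libraries, against 6.18% of all genes tested, and in 0 above, against 6.31%. The 3 genes that DESeq2 called, named after their values were seen, were Gpat4, which adds the first fatty acid in the endoplasmic reticulum (-0.60, standard error 0.14, edgeR adjusted p = 0.418, DESeq2 adjusted p = 0.00732), Ces1d, a carboxylesterase that hydrolyses stored triglyceride (-0.88, standard error 0.21, 0.435 and 0.00649), and Mgll, the monoacylglycerol lipase (-0.88, standard error 0.24, 0.499 and 0.0327).

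By step, none of the genes with the largest difference in liver passed edgeR's adjusted test. They were Gpd1, which makes glycerol 3-phosphate (-0.43), Gpat4 (-0.60), Agpat4 (-0.90), the phosphatidate phosphatase Plpp1 (-1.30, standard error 0.40, adjusted p = 0.543), Ctdnep1 of the lipin phosphatase (-0.10) and Tmem68 (-0.48). For fatty acid activation it was Acsl1 (-0.38), for phospholipid synthesis Cept1 (-0.21), for droplets Fitm1 (-0.77), for hydrolysis Pnpla3 (-0.93) and among regulators Insig2 (-0.60). In 2 genes of the glycerol 3-phosphate step (Gpd1 and Gyk, glycerol kinase, -0.40) the hHKDC1 OE liver libraries all lay below null. Both parts of the phosphatase that activates lipins, Ctdnep1 and Cnep1r1 (-0.03), differed by less than their standard errors of 0.13 and 0.21.

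In fat 51 of the 52 were tested, and 0 were called by edgeR in either direction, 4 had an unadjusted p under 0.05, as did 2903 of all 16380 genes tested, and DESeq2 called 0. The log2 fold change was below 0 in 42 and above 0 in 9, with a median of -0.22 beside -0.05 for all genes, and all hHKDC1 OE libraries lay below null in 7, against 10.2% of all genes tested, and above in 0, against 12.5%. The genes furthest from 0 by listed step were Gpd2 (0.40), Gpat3, a first acyltransferase abundant in adipocytes (-0.50), Abhd5 (-0.32), Plpp2 (-0.46), Cnep1r1 (-0.23) and Mogat2 (-0.79, standard error 0.94). For the later steps they were Acsl6 (-2.04, standard error 1.66), Pemt (-0.90, standard error 0.30, adjusted p = 0.204 by edgeR), Fitm1 (-1.46, standard error 1.01), Mgll (-0.39, standard error 0.31) and Insig2 (-0.46, standard error 0.14). Pemt methylates phosphatidylethanolamine to phosphatidylcholine and is a gene of hepatocytes (log2 difference of null fat from null liver -4.80, standard error 0.29), and the part of liver RNA in its difference was not tested. For the interaction, 52 were tested, 0 were called by edgeR or by DESeq2 and 2 had an unadjusted p under 0.05, with Plpp1 (1.43, standard error 0.46, adjusted p = 0.22 by edgeR) furthest from 0. In the other steps the furthest were Gpd2 (0.84), Gpat2 (-0.80), Agpat4 (1.11), Ctdnep1 (0.34), Tmem68 (0.66), Acsl6 (-1.14), Cds1 (-1.03), Fitm1 (-0.59), Pnpla3 (0.69) and Mlxipl (-0.54).

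**Figure D5:**
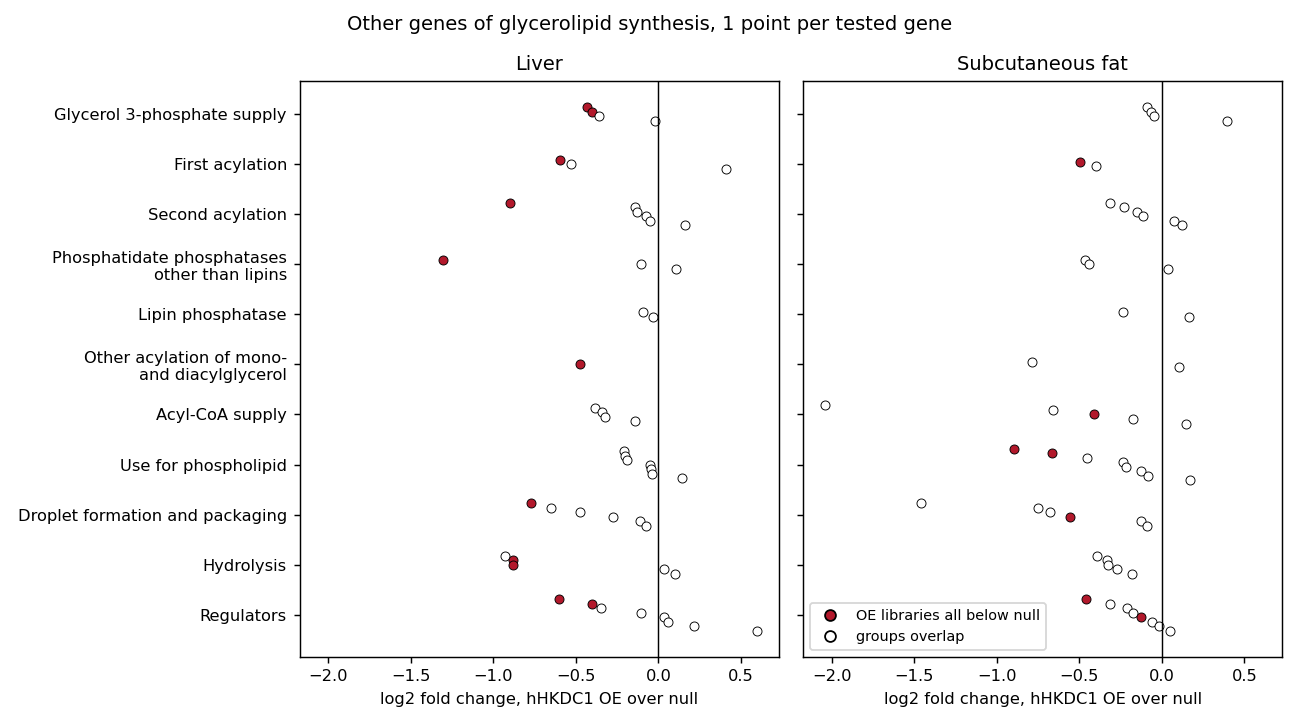
Log2 fold change of hHKDC1 OE over null (horizontal axis) of the tested genes among 52 other genes of glycerolipid synthesis, by step (vertical axis), in liver and subcutaneous fat. Filled points are genes whose 3 hHKDC1 OE libraries all lie below the 3 null libraries, 11 in liver and 7 in fat; 39 of 49 points in liver and 42 of 51 in fat lie left of 0.

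Between the null tissues, 39 of the 52 genes were called, 19 higher and 20 lower in fat, where 64.3% of all 15259 genes tested were called. Among genes of hydrolysis and droplets, Cidec, which enlarges adipocyte droplets (7.20, standard error 0.40), Lipe, hormone-sensitive lipase (6.32, standard error 0.28), Pnpla3 (6.09, standard error 0.64) and Pnpla2, adipose triglyceride lipase (3.71, standard error 0.25) were higher in fat. Mttp, which loads triglyceride on lipoproteins (-5.31, standard error 0.34) and Fitm1 (-3.04, standard error 0.50) were lower in fat, each of these 6 genes with an adjusted p of at most 0.000992 by edgeR. The mean of Mttp was 89.0 FPKM in null liver and 2.33 FPKM in null fat, and Alb differed by -5.62. The part of liver RNA in the fat level of Mttp, and of the other genes lower in fat, was not tested. At the first acylation Gpat3 was 2.44 higher (standard error 0.37) and Gpat4 was lower in fat (-1.33, standard error 0.19). Of the genes listed under the second acylation, Agpat1 (1.79), Agpat4 (1.73) and Abhd5 (1.49) were higher. Gyk, which recovers glycerol in liver, was lower in fat (-4.07, standard error 0.24), and Gpd1 higher (1.13, standard error 0.18). Cds1, which turns phosphatidate towards other phospholipids, was 6.56 higher (standard error 0.53), while Pemt (-4.80) and Pcyt2 (-3.38) of phosphatidylcholine and phosphatidylethanolamine synthesis were lower. Of the acyl-CoA synthetases, Acsl5 (-3.45, standard error 0.23) and Acsl4 (-1.89) were lower, and Mogat2, the other monoacylglycerol acyltransferase, was higher (4.78, standard error 0.57). Among phosphatidate phosphatases, Plpp1 was higher (0.73) and Plpp2 (-0.84) and Plpp3 (-0.49) were lower. Of the regulators, the adipocyte factor Pparg was higher (3.21) and Ppara (-3.87) and Insig2 (-2.50) were lower. Of the lipin phosphatase genes 0 of 2 were called. With libraries scaled by their total alone, 36 of the 52 were called, 26 higher and 10 lower in fat. Of the 39, Plpp2 (0.05), Plpp3 (0.40) and Nr1h3 (0.04) turned from below to above 0 and lost their call. Gpat4 (-0.44), Agpat3, Cept1, Lclat1, Mlxipl, Plin2 and Ppargc1a lost it too. Called only under this scaling were Acsl1, Cds2, Ces1d, Cnep1r1, Ctdnep1, Gpd1l and Tmem68, all above 0. Ces1d, Gpd1l and Tmem68 had been below 0, as had Acsl3, Gpd2, Pcyt1a and Srebf1, which also turned without a call. Genes were named here for the scaling after their values were seen.

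Lpin1 is a known target of glucocorticoid and fasting signals, and genes of both responses were read beside it from lists, as values only. Of 8 glucocorticoid response genes 7 were tested, and all 7 had a log2 fold change below 0 in liver (median -0.58) and in fat (median -1.17), with 0 called by edgeR. All hHKDC1 OE libraries lay below null in 3 of the 7 in liver (Fkbp5, Tsc22d3 and Tat), against 6.18% of all genes tested, and in 5 of the 7 in fat, against 10.2%. Per1, Sgk1, Zbtb16 and Mt1 overlapped in liver, where hHKDC1 OE replicate 2 was above every null library for Per1 (67.5 against 46.5 to 63.1 CPM) and Zbtb16 (57.0 against 29.3 to 54.1 CPM). Their summed level was 4413, 3876 and 2971 CPM in null liver and 2014, 2647 and 747 CPM in hHKDC1 OE liver, most of it Tat, which is also among the hepatocyte markers. In fat the sum was 1256, 1484 and 1630 CPM in null and 604, 917 and 516 CPM in hHKDC1 OE libraries. The groups of these sums did not overlap, and whether they are linked to Lpin1 was not tested. The gene of the glucocorticoid receptor itself, Nr3c1, differed by 0.22 (standard error 0.22) in liver and -0.17 (standard error 0.17) in fat on the log2 scale. All 6 fasting response genes were also below 0 in both tissues, with medians of -0.55 and -0.57 and 0 called. The hour of tissue collection is not given in the labels. Of the clock genes, with Per1 in this list too, 6 of 10 tested were below 0 in liver and 7 of 11 in fat. In liver all hHKDC1 OE libraries lay below null in 1 (Cry1) and above in 1 (Dbp), against 6.18% and 6.31% of all genes tested. In fat they lay below null in 5 (Per1, Per2, Per3, Nr1d2 and Ciart) and above in 1 (Arntl), against 10.2% and 12.5%. Whether these values are linked to the hour or to Lpin1 was not tested.

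The genes whose pattern over the 6 liver libraries was nearest to that of Lpin1, the most variable of the 8 genes there with a mean of at least 1 CPM, were Rapgef5, Id1 and Tcim. Their root mean square differences from Lpin1 were 0.145, 0.149 and 0.170 on the log2 CPM scale, each gene centred on its mean. Id1, for example, was at 7.54, 13.8 and 10.3 CPM in null liver and 2.83, 6.12 and 2.19 CPM in hHKDC1 OE liver. In fat the most variable was Lpin3, and the nearest genes were Apcdd1, Eepd1 and Myl4, at 0.0990, 0.109 and 0.145. These genes were picked as the nearest out of 13351 and 16380 genes, so a close match is what the choice gives.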

How the data were processed

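Liver and subcutaneous fat were profiled by RNA-seq in 4 groups of 3 libraries. The authors prepared non-strand-specific libraries, mapped the reads with STAR (2.5 in the submitters' processing notes) and counted fragments per gene with HTSeq 0.6.1. The methods name a human reference, whereas the identifiers are mouse Ensembl genes, 98.3% of those matched lying at the same position in GENCODE M21 (GRCm38). The deposited counts are whole numbers without normalization. The deposited FPKM values could be rebuilt to within 1% from these counts, the gene lengths and DESeq2 size factors taken across both tissues (100% of 252371 nonzero values). The authors' tables of their own comparisons hold fold changes and p-values and were not used.

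Each tissue, the 2 null groups and the interaction were fitted on the counts with edgeR 4.0.16 (glmQLFit, glmQLFTest, TMM, filterByExpr, no term for the replicate number), with Benjamini-Hochberg adjustment over all genes and a threshold of 0.05. R 4.3.3, limma 3.58.1 and DESeq2 1.42.0 were used for the alternatives, and the fits were checked on simulated counts. CPM were scaled by TMM within a tissue. The 8 members, the 52 pathway genes and the marker and response lists were chosen with earlier results of these data known. Of the pathway list, the genes named are those called (at most 3 a step, by size of the difference) or, in a step with none called, the gene with the largest difference. Deviations from the group means were correlated across genes between null and hHKDC1 OE libraries with the same replicate number. The correlations were 0.213, 0.185 and 0.101 in liver and 0.028, -0.141 and 0.033 in fat. No correlation of libraries with unlike numbers was set beside them, and no source says what the numbers share. Whether the numbers pair libraries was therefore not tested. Few counts limit the precision for Mogat1 and Lpin3 in liver.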

Additional observations from a re-analysis of the deposited data

How the results depend on the processing

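The alternatives were DESeq2, other scalings, filters, limma on log2(FPKM + 1) or log2(FPKM + 0.1), the replicate block, the 12 libraries in 1 fit, and each library left out; a further one, fat without the 2 hHKDC1 OE libraries highest in B cell markers, was added after the data were seen and, with 1 hHKDC1 OE library left, gave 0 called genes and 0 pathway genes. Of the members' log2 fold changes, 526 values were recomputed, of which 44 changed sign, in 11 of 119 values for liver, 8 of 128 for fat, 22 of 159 for the interaction and 3 of 120 between tissues, and 34 moved by more than the spread between replicates. A single one of the 44 had been called in the reported fit: Lpin1 between null fat and null liver, at 0.027 with library size alone. Dgat1 in the interaction changed sign in 10 of 20. That scaling also moved the median of all genes by 0.15 in fat and changed the split between the null tissues from 5163 higher and 4647 lower to 9012 and 2286. Lpin1 stayed below 0 in both tissues under every alternative run, from -1.67 to -1.10 in liver, where 3 of 15 called it, and from -1.49 to -0.92 in fat, where 4 of 16 did. The genes called in liver, 0 in the reported fit, were 90 with DESeq2, 2 with library size alone, 327 with no filter, 3 and 5 with limma, 17 with the replicate block and 0 to 146 with a library left out (146 without hHKDC1 OE replicate 2); pathway genes called were 3 with DESeq2, 4 with no filter and 0 to 1 with a library left out. In fat they were 1301 with DESeq2, 803 with no filter, 1 with limma on log2(FPKM + 1), 168 with the replicate block, 876 in the fit of 12 libraries and 0 to 3251 with a library left out (3251 without hHKDC1 OE replicate 2, 2 without null replicate 3), with 0 to 9 pathway genes. For the interaction they were 493 with DESeq2, 479 with no filter, 6 with the replicate block and 0 to 1211 with a library left out (1211 without hHKDC1 OE fat replicate 2, Dgat2 among them). Between the tissues, the correlations of libraries with the same replicate number were 0.276, 0.038 and 0.153 for null liver and null fat. For hHKDC1 OE liver and fat they were 0.022, 0.063 and 0.046. Whether the numbers pair libraries was not tested, and no member was called under the block in liver or fat. The cause of these shifts was not tested.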
